A study of Mus musculus with 13 samples.

Results

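The cells described here were selected as smooth muscle cells and pericytes, the contractile cells that wrap airways and blood vessels, from a single-cell RNA count matrix of mouse lung. A cell was taken when its barcode ended in 1, 2, 3 or 7, when mitochondrial genes made up 10% of its UMIs or less, when it held 4 or more UMIs over the marker genes Postn, Cspg4, Pdgfrb, Tagln, Myh11 and Acta2 with 2 of them or more detected, and when it had no UMI of Npnt, Pi16 or Ptprc and no more than 1 of Col13a1. A UMI, or unique molecular identifier, stands for 1 captured RNA molecule. These measured values chose 127 of the 20856 cells kept in libraries 1, 2, 3 and 7, a share of 0.609% (exact 95% binomial interval 0.508 to 0.724), out of 37344 barcodes in the matrix. Of the 127 members, 76 had a Myh11 UMI and are called Myh11-positive, 35 had Pdgfrb without Myh11 and are called Pdgfrb-positive, and 16 had neither gene.

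The labels list 13 mouse lung samples. By title, 1 each is an asthma, a control, a PPE-emphysema and a PPE-recovery sample, and 3 each are acute injury, Con and emphysema samples, without a genotype or agent in the labels. PPE is porcine pancreatic elastase, and in the study C57BL/6 mice received weekly instillations of it for emphysema or a single one for recovery, while the asthma model was sensitized and challenged with ovalbumin. The ages of the mice are not stated in the labels, and the sources do not say which library number belongs to which sample, and the study used 1 mouse per group for its single-cell data, so the matrix was treated as 1 sample, no condition was compared with another, and no test was run. The members held 1099035 UMIs in all, with a median of 6772 and a range of 516 to 44349 per cell. Levels are given as CPM, the UMIs of a gene per 1000000 UMIs of the named cells, with exact 95% Poisson intervals. All intervals cover counting error only, and a level at 0 UMIs was read as allowing 3.

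Smooth muscle cells contract when phosphorylated myosin, with Myh11 as its heavy chain, pulls on actin filaments made largely of Acta2, and the genes of this apparatus are switched on together by serum response factor and its partner myocardin. Pericytes sit in the basement membrane of capillaries, depend on Pdgfrb for the platelet-derived growth factor that endothelial cells secrete, and hold less of the contractile machinery. In the lung, alveolar and ductal myofibroblasts share Acta2 with both and lay down elastin, the protein that elastase degrades.

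Among the genes that defined the selection, Acta2 (chromosome 19, 34241090 to 34255590 on the minus strand of GRCm38) had 4648 CPM in Myh11-positive cells (4478 to 4823) and 433 in Pdgfrb-positive cells (367 to 508), where 1 cell held 39.7% of the UMIs. Tagln, which encodes the actin-binding protein transgelin (chromosome 9, 45929619 to 45936058, minus strand), had 3633 and 510 CPM. Myh11 (chromosome 16, 14194535 to 14291372, minus strand) had 981 CPM in the class it defined. Pdgfrb had 347 CPM in Myh11-positive and 373 in Pdgfrb-positive cells, and 51 of the 76 Myh11-positive cells carried it. Cspg4, the NG2 proteoglycan of mural cells, had 64.4 and 45.9 CPM, and Postn, the matrix protein periostin, 433 and 396. In cells with at least 2 UMIs of Ptprc, the leukocyte gate used as background, Acta2 was at 22.7, Myh11 at 3.46 and Pdgfrb at 2.53 CPM, over 12528 cells with a median of 9194.5 UMIs. Beside the threshold, 10 cells had 4 marker UMIs and were taken, while 25 cells with 3 marker UMIs met the other limits and were not.

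The members were spread unevenly over the libraries. Library 1 gave 13 of its 4800 kept cells (0.271%, 0.144 to 0.463), library 2 gave 80 of 7626 (1.05%, 0.833 to 1.30), library 3 gave 29 of 5129 (0.565%, 0.379 to 0.811) and library 7 gave 5 of 3301 (0.151%, 0.0492 to 0.353). Library 2 thus held 63.0% of the members, and its interval did not overlap those of the other 3. The Myh11-positive cells numbered 6, 55, 14 and 1 in that order and the Pdgfrb-positive cells 5, 19, 8 and 3, so that library 2 was the only one with at least 10 cells of both classes. In libraries 4, 5 and 6, which the selection did not use, 0 of 2992, 4888 and 4882 kept cells met the gene limits, which allows shares of up to 0.10, 0.0614 and 0.0615%. The libraries shared between 3 and 15 barcodes in pairs among their kept cells, and no member was among them.

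**Figure D1:**
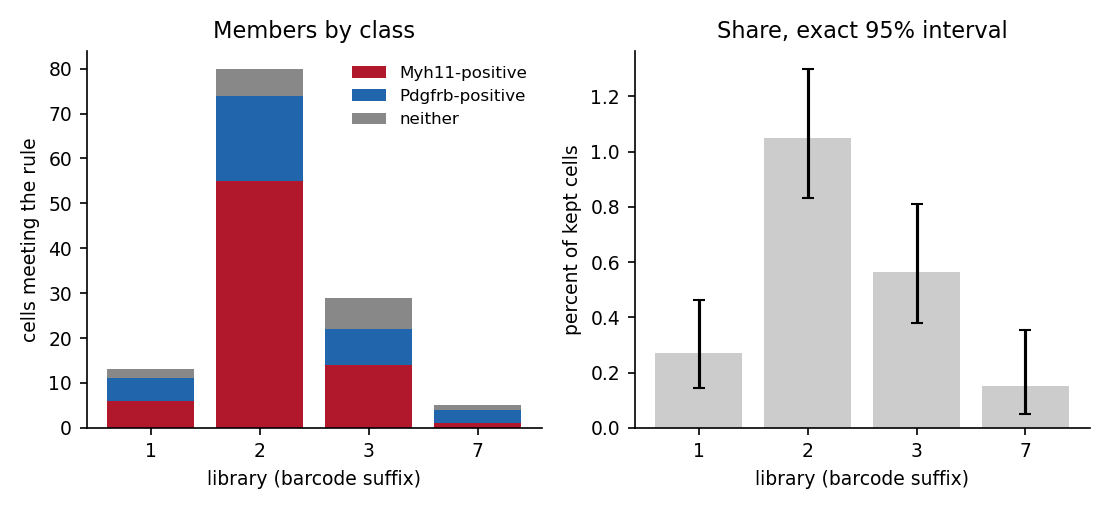
Left, cells meeting the selection in each library, stacked by class; right, the same cells as a percent of the library's kept cells with exact 95% binomial intervals. Library 2 holds 80 of the 127 members and has the highest share, 1.05%, and library 7 the lowest, 0.151%.

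The name smooth muscle cells and pericytes held for only part of the members. Over Cdh5, Pecam1, Cldn5 and Tie1, genes of endothelial cell junctions and receptors, 46 members (36.2%, 27.9 to 45.2) had 4 or more UMIs. The same was true of 21 of 76 Myh11-positive, 15 of 35 Pdgfrb-positive and 10 of 16 cells with neither gene. Among leukocytes they were 545 of 12528 (4.35%). Gates of alveolar and adventitial fibroblasts had 50 of 1216 and 2 of 154, but cells that also met the endothelial gate had been dropped from them, and with cells of several gates kept the counts were 188 of 1356 (13.9%, 12.1 to 15.8) and 4 of 158 (2.53%, 0.694 to 6.35). All 10 genes of the endothelial list were detected in the members, where they summed to 6283 CPM with Cldn5 as the most abundant, against 14326 in the endothelial gate of 2775 cells. By library the sum in members was 10895, 4974, 7444 and 1609 CPM for libraries 1, 2, 3 and 7. The endothelial genes were close between Myh11-positive and Pdgfrb-positive cells, with Cdh5 (VE-cadherin) at 808 and 857 CPM and Cldn5 (claudin 5) at 1599 and 1514, and their part in the results was not tested. Counts of genes past 2-fold are therefore also given for the 72 members without a UMI of Pecam1, Cdh5, Epcam, Msln or Upk3b, of which 47 were Myh11-positive and 19 Pdgfrb-positive.

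Airway epithelial genes were high in a pair of members. A Myh11-positive cell of library 3 with 44349 UMIs, the deepest of all, had 22701 UMIs (51.2%) of Scgb1a1, the secretoglobin of airway club cells, along with 110 endothelial and 6 Myh11 UMIs. The next highest member had 67 Scgb1a1 UMIs. Another Myh11-positive cell of library 3, of 9657 UMIs and in subcluster 3 of the 5 into which the members were clustered, had 1 Scgb1a1 UMI but 50 of Cyp2f2, 52 of Wfdc2, 32 of Cbr2, 15 of Krt19 and 5 of Epcam, beside 5 of Acta2 and 1 of Myh11. No other member had more than 6 UMIs over these 5 epithelial genes. The deeper cell set the level of Scgb1a1 in the Myh11-positive class, which was 38235 CPM with it, and raised the summed epithelial list of library 3 to 99777 CPM against 677, 1022 and 183 in libraries 1, 2 and 7. Of the other foreign lineages, Msln and Upk3b of mesothelium and Myh6 and Myl7 of heart muscle were at 0 in every member, although 4 of 10 mesothelial and 5 of 10 cardiac genes were detected and the lists summed to 41.9 and 21.8 CPM, the first led by Krt19. The erythroid list summed to 9.10 CPM, the Schwann cell and neural list to 45.5, and the leukocyte list to 820 CPM against 26272 in the leukocyte gate.

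The limits on fibroblast genes also left out many cells with a Myh11 UMI. A further 705 cells met the marker limits without Ptprc but held Npnt, Pi16 or more than 1 UMI of Col13a1, and 194 of these had a Myh11 UMI, more than the 76 such members. All 194 carried Npnt, the matrix protein nephronectin, at 430 CPM (402 to 459), and their Acta2 level of 9819 CPM (9684 to 9955) and Myh11 level of 1615 (1560 to 1670) compare with 4648 and 981 in all Myh11-positive members, and with 8085 (7775 to 8404) and 1677 (1538 to 1826) in the 57 outside the endothelial-rich subcluster 1, so that only Acta2 was higher than in these. Tagln had 6592 CPM (6482 to 6703) in the 194 and 6316 (6043 to 6599) in the 57, with overlapping intervals. Acta2, Myh11 and Tagln are selection genes, and no contractile gene outside the selection was examined in the left out cells. Inmt, a methyltransferase of alveolar fibroblasts, was found in 50 of the 194 and had 506 CPM.

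Myh11-positive and Pdgfrb-positive members differed first in the contractile apparatus. Of the 26 genes on the contractile list, 23 had the 20 UMIs over both classes required for a ratio, 17 of these were at least 2-fold higher in Myh11-positive cells and 0 were at least 2-fold higher in Pdgfrb-positive cells. Across all 6985 genes with a ratio, 6.07% passed 2-fold toward Myh11-positive cells (424 genes) and 6.27% toward Pdgfrb-positive cells (438 genes). The median log2 ratio was 1.91 for the list and -0.02 for all genes. Among members without another lineage, 19 of 22 genes of the list were past 2-fold in the same direction, none in the other, with a median of 2.28, where 13.3% of 3868 genes passed 2-fold toward Myh11-positive and 9.38% toward Pdgfrb-positive cells.

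Actc1, the cardiac form of alpha-actin that some smooth muscle also makes (chromosome 2, 114047282 to 114053548, minus strand), had 507 CPM in Myh11-positive cells (452 to 567) and 0 in Pdgfrb-positive cells, a level at least 59.0-fold higher. By library its level in Myh11-positive cells was 910 CPM in library 1, 625 in library 2 and 7.28 in library 3. The libraries differ in how their members fall into subclusters. Subcluster 2, described further on, had Actc1 at 1528 CPM and held 4, 26 and 1 members of libraries 1, 2 and 3. Actc1 was thus high in libraries 1 and 2 and low in library 3, and it was 0 in the Pdgfrb-positive cells of each. Cnn1, which encodes the actin-bound regulator calponin (chromosome 9, 22099216 to 22109630, plus strand), followed the same order with 314, 292 and 7.28 CPM and 0 in Pdgfrb-positive cells, at least 26.3-fold higher over all libraries. In Myh11-positive cells of library 3, 10 UMIs are 72.8 CPM, so the low values of Actc1 and Cnn1 there rest on very few UMIs. Lmod1, the smooth muscle nucleator of actin filaments, had 291 against 17.2 CPM (16.9-fold, 7.61 to 46.7). Synpo2, a partner of actin and filamin, had 167 against 8.60 CPM (19.4-fold, 6.45 to 95.7, on 3 UMIs in Pdgfrb-positive cells). Actg2, enteric gamma-actin, had 254 against 20.1 CPM (12.7-fold, 6.01 to 32.1). The broadly used members of the apparatus differed less.

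Tropomyosin 2 (Tpm2) was 6.40-fold higher, the regulatory light chain Myl9 5.88-fold, desmin (Des) 3.75-fold, tropomyosin 1 (Tpm1) 3.30-fold and the light chain kinase Mylk 2.78-fold. Myl6, the light chain that non-muscle cells also use, had 3039 against 1671 CPM and did not reach 2-fold. In library 2 alone Myl9 had 1407 against 279 CPM. The selection genes Acta2 and Tagln had 6274 against 422 and 4464 against 621 CPM (335 without 1 cell). Because the selection used these genes, their levels by library are given as description only. Library 1 showed the same order for Myl9, at 1459 against 69.2 CPM, and had 4080 against 115 CPM of the selection gene Acta2. In library 3 the order was not seen for these genes outside the selection, with Myl9 at 160 against 159 CPM and Des at 211 against 204. The Myh11-positive cells of library 3 had Cdh5 at 1142 CPM and Scgb1a1 at 165840 CPM. A single cell of 44349 UMIs held 22701 of their 22790 Scgb1a1 UMIs. How far such cells lowered the contractile levels of library 3 was not tested. Acta2 had 466 against 68.0 CPM there.

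The promoters of the contractile genes were searched for the CArG box, the site of serum response factor, in which CC and GG flank a run of A and T bases, over the 250 bases before and 50 after each RefSeq start site (GRCm38.p6). The box is its own reverse complement, so both strands give the same matches. It was found in 6 of 26 contractile genes with a promoter in the table, of 29 looked for with Acta2, Tagln and Myh11 included (23.1%), and in 488 of all 27025 promoters (1.81%). With up to 1 mismatch the counts were 8 of 26 (30.8%) and 3050 (11.3%). The stretches below show Actc1 and Myl9, which had an exact box and a ratio past 2-fold, and Acta2, the most abundant selection gene, with its pair of boxes of 1 mismatch each. Actc1 and Myl9 were chosen after their values were seen. Of the other 4 contractile genes with an exact box, Acta1 had no UMI in members, and Cnn2, Vcl and Myl6 had ratios of 1.84, 1.64 and 1.82. Capitals mark the box, and each is written 5′ to 3′ on the strand of the gene.
Actc1: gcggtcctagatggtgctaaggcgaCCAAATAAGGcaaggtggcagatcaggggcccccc
Myl9: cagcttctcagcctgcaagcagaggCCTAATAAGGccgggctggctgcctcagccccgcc
Acta2 distal: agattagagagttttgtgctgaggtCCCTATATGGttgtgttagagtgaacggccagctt
Acta2 proximal: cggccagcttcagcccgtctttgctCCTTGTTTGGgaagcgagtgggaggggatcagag

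The Actc1 stretch lies at chr2:114052888-114052947 on the minus strand and its box begins 47 bases before the start site. That of Myl9 lies at chr2:156775278-156775337 on the plus strand, with the box 161 bases before the start. The Acta2 stretches lie at chr19:34255423-34255482 and chr19:34255374-34255432 on the minus strand, with boxes 84 and 34 bases before the start. A match describes these letters and not a bound site. In the windows of Tagln, Myh11, Cnn1 and Actg2 no box with up to 1 mismatch was found, although Cnn1 and Actg2 were among the contractile genes of largest ratio.

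Genes of large ratio outside the contractile list included signaling and matrix genes. Among the 15 genes of largest ratio toward Myh11-positive cells, Ramp1, a partner of the receptor for the vasodilator CGRP, had 142 against 2.87 CPM (49.6-fold, 8.66 to 1980, on 1 UMI in Pdgfrb-positive cells). Adcy3, an adenylyl cyclase, had 183 against 5.73 CPM (32.0-fold, 8.65 to 267, on 2 UMIs). Mustn1, a small nuclear protein of muscle, had 1416 against 155 CPM and was 9.15-fold higher. Mrvi1, the inositol trisphosphate receptor-associated substrate of cGMP kinase, was 9.22-fold higher, and Rgs7bp, which anchors regulators of G protein signaling, 8.79-fold. Col18a1, the basement membrane collagen that is the source of endostatin, had 248 against 31.5 CPM (7.86-fold, 4.27 to 16.1). Scgb1a1, Scgb3a2, Cbr2 and Cxcl10 were also among the 15, and 1 cell supplied 97.1, 96.1, 72.8 and 99.3% of their UMIs in members.

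**Figure D2:**
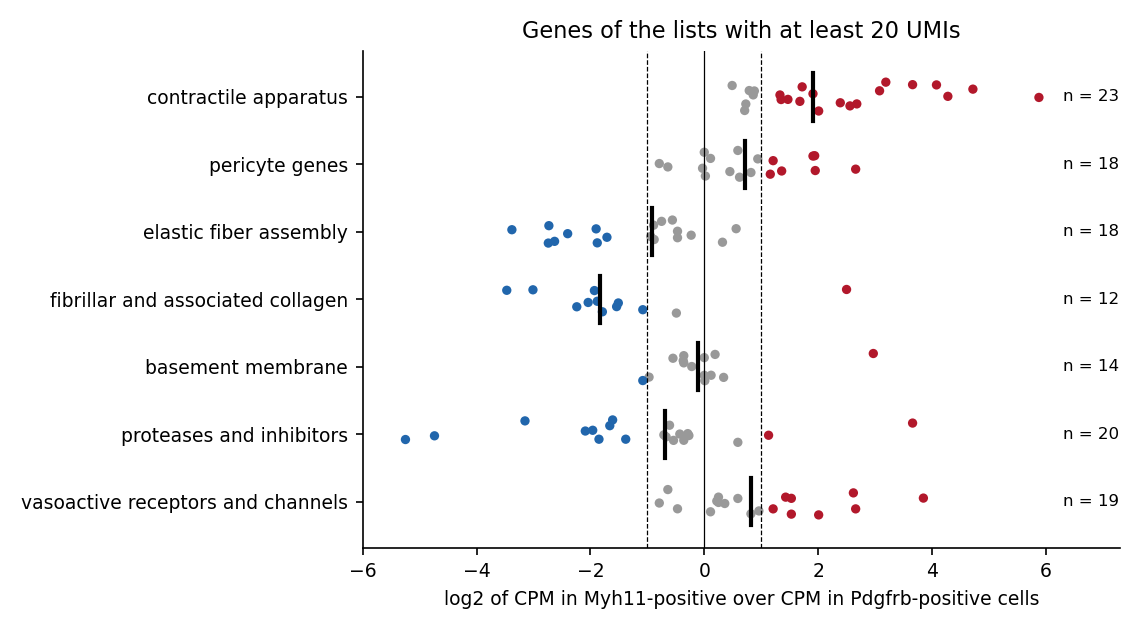
Each point is 1 gene of a list with at least 20 UMIs in both classes together, placed at the log2 ratio of its CPM in Myh11-positive over Pdgfrb-positive cells; red and blue points are past 2-fold, dashed lines mark 2-fold, vertical bars the list's median, and genes at 0 in one class stand at the ratio to 3 UMIs. The contractile list lies to the right with a median of 1.91, and the collagen list to the left with a median of -1.84.

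The genes that mark pericytes were not higher in the Pdgfrb-positive cells. On the pericyte list, 18 of 20 genes had a ratio, 7 were at least 2-fold higher in Myh11-positive cells and 0 in Pdgfrb-positive cells, with a median log2 ratio of 0.72. Without other lineages, 10 of 15 passed 2-fold toward Myh11-positive cells, 0 toward Pdgfrb-positive cells, and the median was 1.37. Shares over all genes were 6.07 and 6.27%, and 13.3 and 9.38% without other lineages. Higd1b, a hypoxia-inducible mitochondrial protein and one of the sharpest lung pericyte genes, had 142 CPM in Myh11-positive (114 to 175) and 140 in Pdgfrb-positive cells (104 to 186). Vitronectin (Vtn) had 43.0 CPM in both. Pdzd2, a scaffold protein with PDZ domains, had 304 and 310. The intervals of these 3 genes overlapped between the classes. Cox4i2, the hypoxia-linked isoform of cytochrome oxidase subunit 4, had 314 against 163 CPM (107 without 1 cell), a ratio of 1.92 that became 2.59 without other lineages. By library its level over all members was 108, 254, 361 and 0 CPM in libraries 1, 2, 3 and 7.

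Soluble guanylate cyclase, the receptor of nitric oxide, had its alpha subunit Gucy1a1 at 575 against 327 CPM and its beta subunit Gucy1b1 at 332 against 221. Neither subunit reached 2-fold among all members, and without other lineages the ratios were 3.35 and 2.51. Notch3, the Notch receptor of mural cells (chromosome 17, 32120820 to 32166852, minus strand), had 355 against 91.7 CPM (3.87-fold, 2.66 to 5.80) and 4.85 CPM in alveolar fibroblasts. It was higher in the Myh11-positive cells of library 1 (157 against 80.7), library 2 (423 against 131) and library 3 (269 against 45.3). Rgs5, a regulator of G protein signaling often used for pericytes, was low at 36.4 against 5.73 CPM, the latter on 2 UMIs. The channel Trpc6 was 2.31-fold and the transcription factor Ebf1 2.24-fold higher in Myh11-positive cells. Angpt1, a ligand of the endothelial Tie receptors, was 2.57-fold higher, a direction that turned when cells with fibroblast genes were let in. The channel pair Kcnj8 and Abcc9 pointed the other way, at 47.9 against 74.5 and 84.3 against 146 CPM, without reaching 2-fold.

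Of the regulators, 23 of 25 listed genes had a ratio, and 4 were at least 2-fold higher in Myh11-positive and 3 in Pdgfrb-positive cells, with a median log2 ratio of 0.35. Without other lineages 5 and 1 of 17 passed, with a median of 0.61. Over all genes the shares were 6.07 and 6.27%, and 13.3 and 9.38% without other lineages. Myocd, the coactivator myocardin, had 33.0 against 2.87 CPM (11.5-fold, 1.84 to 478, on 1 UMI in Pdgfrb-positive cells). The Notch targets Heyl and Hey2 were also higher in Myh11-positive cells, Heyl at 126 against 54.5 CPM and Hey2 at 33.0 against 8.60. Hey1, another gene of that family, was lower, at 43.0 against 112 CPM, and was below 2-fold without other lineages. Toward Pdgfrb-positive cells, Klf4, which opposes the contractile program, had 216 against 505 CPM. Srf itself differed by less than 2-fold, and so did Tbx4 and Tbx5, the T-box factors of lung mesenchyme.

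Receptors and channels that set vascular and airway tone leaned toward Myh11-positive cells. Of 37 listed genes, 19 had a ratio, and 8 were past 2-fold toward Myh11-positive and 0 toward Pdgfrb-positive cells, with a median log2 ratio of 0.82. Without other lineages 10 of 14 passed toward Myh11-positive cells and 0 toward Pdgfrb-positive cells, with a median of 1.52. For all genes the shares were 6.07 and 6.27%, and 13.3 and 9.38% without other lineages. The muscarinic receptor Chrm2 had 41.3 against 2.87 CPM (14.4-fold, 2.36 to 592, on 1 UMI in Pdgfrb-positive cells). Ednrb, an endothelin receptor that lung capillary cells also make, had 246 against 40.1 CPM, with 178 CPM in the endothelial gate, and had 197 against 16.5 without other lineages. The L-type calcium channel Cacna1c was 2.88-fold higher, the thromboxane receptor Tbxa2r 2.88-fold and the cGMP kinase Prkg1 2.69-fold. Ednra, the main endothelin receptor of smooth muscle, was close between classes at 102 against 86.0 CPM. The angiotensin receptor Agtr1a had 24.8 against 34.4 and the phosphodiesterase Pde5a 340 against 287. Adra2a, Adra2b, Avpr1a and Chrm3 had no UMI in any member.

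Collagen, elastic fiber and fibroblast genes were higher in the Pdgfrb-positive class, with most of their UMIs in a minority of its cells. The collagen list summed to 12986 CPM in Pdgfrb-positive and 2837 in Myh11-positive cells. Of the 4530 collagen UMIs of the Pdgfrb-positive class, 2698 came from its 11 cells in the fibroblast-like subcluster 4 described further on and 1525 from 1 cell of library 7 in subcluster 3. Of the other 23 Pdgfrb-positive cells, the 13 of subcluster 1 had 212 CPM (142 to 305), against 369 (302 to 446) in Myh11-positive cells there, and the other 10 had 6389 (5660 to 7186), against 5070 (4825 to 5324) in Myh11-positive cells outside subcluster 1. On the collagen list 12 of 13 genes had a ratio, of which 10 were at least 2-fold higher in Pdgfrb-positive and 1 in Myh11-positive cells, with a median log2 ratio of -1.84, and the counts were the same without other lineages. All genes passed at 6.27 and 6.07% in these directions, and at 9.38 and 13.3% without other lineages. Col1a1, which encodes a chain of type I collagen (chromosome 11, 94936224 to 94953042, plus strand), had 316 CPM in Myh11-positive (272 to 364) and 3486 in Pdgfrb-positive cells (3293 to 3687), and a single cell supplied 44.8% of its UMIs in members, without which Pdgfrb-positive cells had 1803 CPM (1659 to 1957). Within library 2 it had 363 against 2290 CPM, within library 1 235 against 1637 and within library 3 233 against 498. The order was the same in these 3 libraries, but 1 cell held 137 of the 142 UMIs of Pdgfrb-positive cells in library 1, and those of library 3 had 22 UMIs. The level over all members of library 7, with 5 cells, was 12121 CPM, set mostly by 1 cell with 643 UMIs of Col1a1. Its partner chain Col1a2 was 8.03-fold higher in Pdgfrb-positive cells and Col3a1, of type III collagen, 2.91-fold. Col8a1, a short-chain collagen of vessel walls, was the exception, with 178 against 31.5 CPM.

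Of the elastic fiber genes, 18 of 19 had a ratio, and 8 were past 2-fold toward Pdgfrb-positive and 0 toward Myh11-positive cells, with a median log2 ratio of -0.91. Without other lineages the counts were 9 and 0 of 18 and the median was -1.21. In the same order, 6.27 and 6.07% of all genes passed, and 9.38 and 13.3% without other lineages. By summed level, the 11 Pdgfrb-positive cells of subcluster 4 had 14249 CPM of this list. Outside subclusters 1 and 4, 11 Pdgfrb-positive cells had 7302 CPM (6702 to 7941), or 5575 (5020 to 6175) without the highest of them, against 5492 (5237 to 5756) in Myh11-positive cells outside subcluster 1. In subcluster 1 the 2 classes had 659 and 894 CPM. Elastin (Eln, chromosome 5, 134702593 to 134747323, minus strand) was among the most abundant matrix genes in both classes, at 1380 CPM in Myh11-positive (1288 to 1477) and 2640 in Pdgfrb-positive cells (2472 to 2816), and the 1.91-fold difference did not reach 2-fold. A single cell of library 2 held 351 of the 921 Eln UMIs of Pdgfrb-positive cells, which had 1714 CPM (1576 to 1861) without it. In library 2 Eln had 1883 against 4717 CPM, or 2995 without that cell. In library 1 it had 800 against 507, which became 1607 against 1959 without other lineages, and in library 3 the order was the opposite, at 269 against 68.0 CPM on 37 and 3 UMIs, and 536 against 147 without other lineages. Microfibril genes were more uneven. Mfap4, a microfibril-associated protein, had 116 against 768 CPM and was 6.64-fold higher in Pdgfrb-positive cells. Fibulin 1 (Fbln1) was 6.18-fold, fibrillin 1 (Fbn1) 3.27-fold, Mfap5 3.69-fold, and the crosslinking enzymes Lox and Loxl1 5.28 and 3.73-fold higher. Without its highest cell, the Lox level of Pdgfrb-positive cells fell from 192 to 113 CPM. In the same way the Fbln1 level of Myh11-positive cells fell from 94.2 to 49.0 CPM.

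Genes of the basement membrane were close between classes, with 1 of 14 past 2-fold in each direction and a median of -0.11 in log2 ratio. Without other lineages 2 of 13 passed toward Myh11-positive and 1 toward Pdgfrb-positive cells, with a median of 0.23. These counts are near the shares over all genes, 6.07 and 6.27%, and 13.3 and 9.38% without other lineages. Col4a1, a chain of the main basement membrane collagen, had 737 and 734 CPM. Sparc, a collagen-binding glycoprotein, had 1477 against 3116 CPM. Npnt was absent by selection.

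The adventitial fibroblast list had the lowest median ratio of the lists. All 12 genes had a ratio, 10 of them past 2-fold in that direction and 0 in the other, at a median log2 ratio of -2.41, and its most abundant gene was Ly6a. Without other lineages 11 of 11 passed in the same direction, toward Pdgfrb-positive cells. Of all genes 6.27% passed in that direction, and 9.38% without other lineages. The summed level was 14416 CPM in the 11 Pdgfrb-positive cells of subcluster 4 and 2756 in all Myh11-positive cells. Outside subclusters 1 and 4 it was 1514 (1248 to 1820) in Pdgfrb-positive cells, against 1555 (1421 to 1698) in Myh11-positive cells outside subcluster 1, and within subcluster 1 it was 5054 and 4084. The endothelial gate itself had 5049 CPM (5016 to 5083) of this list, and in subcluster 1 only 1 of 42 cells had a UMI of Dcn. The value of 1555 kept the 1 Myh11-positive cell of subcluster 4, which held 121 of the 185 Dcn UMIs of its class. These levels thus do not leave out the same subclusters, and the same holds for the collagen and elastic fiber lists. Decorin (Dcn), a collagen-binding proteoglycan, had 306 (108 without 1 cell) against 2689 CPM, with 11798 CPM in the adventitial fibroblast gate and 414 in the alveolar one. By library it had 366 against 3480 CPM in library 2, 291 against 2990 in library 3 and 0 against 57.7 in library 1. Gpc3, a cell surface proteoglycan, had 11.6 against 487 CPM (42.1-fold), close to the 563 CPM of alveolar and 654 of adventitial fibroblasts. Sfrp1, a secreted Wnt inhibitor, had 1.65 against 138 CPM (83.3-fold, 14.2 to 3357, on 1 UMI in Myh11-positive cells). Igfbp6, which binds insulin-like growth factor 2, was 23.3-fold, Serpinf1, the antiangiogenic factor PEDF, 16.5-fold, and the matrix protein Svep1 16.5-fold higher. Cdh11, the cadherin of mesenchymal cells, had 4.96 against 181 CPM (36.4-fold, 11.9 to 181, on 3 UMIs). Pdgfra, the receptor that marks lung fibroblasts, had 11.6 against 109 CPM, compared with 691 in alveolar fibroblasts. Saa3 and Ptgs2 also had ratios in this range, but 1 cell held 100% and 95.3% of their UMIs.

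The balance of proteases and their inhibitors was examined because elastase injury and the cysteine protease cathepsin L are the subject of the study. Of 26 listed genes, 20 had a ratio, 9 were past 2-fold toward Pdgfrb-positive and 2 toward Myh11-positive cells, with a median log2 ratio of -0.69. Without other lineages the counts were 8 and 1 of 19, with a median of -0.70. Taken over all genes, the shares in this order were 6.27 and 6.07%, and 9.38 and 13.3% without other lineages. Cathepsin L (Ctsl, chromosome 13, 64359337 to 64370890, minus strand) had 395 CPM in Myh11-positive (346 to 448) and 573 in Pdgfrb-positive cells (497 to 659), which was less than 2-fold. Over all members its level was 268, 498, 424 and 567 CPM in libraries 1, 2, 3 and 7, and it was 777 in alveolar fibroblasts, 1250 in adventitial fibroblasts, 312 in endothelial cells and 355 in leukocytes. Cathepsin S (Ctss) was at 19.8 and 17.2 CPM, near the 22.6 CPM of alveolar fibroblasts and far under the 2627 CPM of leukocytes. Of the elastases, Mmp9 had 3.30 and 0 CPM, Mmp12 3.30 and 8.60, and Elane had no UMI in either class. In leukocytes these stood at 86.6, 415 and 4.43 CPM.

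Of the metalloproteinases on this list, gelatinase A (Mmp2) had 39.7 against 353 CPM and stromelysin (Mmp3) 0 against 189 CPM, at least 38.2-fold higher, with 40.9% of its UMIs in 1 cell. Timp1, an inhibitor of these enzymes, had 8.26 against 221 CPM, or 138 without 1 cell. Timp3, the inhibitor bound to matrix, was high in both at 1575 and 2121 CPM, and so was cystatin C (Cst3), the secreted inhibitor of cysteine cathepsins, at 2964 and 3623 CPM. Timp4 had 72.7 against 5.73 CPM, the latter on 2 UMIs. Among the chemokines, Ccl11, the eosinophil attractant eotaxin, was low at 19.8 and 22.9 CPM, compared with 203 in adventitial fibroblasts. The complement component C3 had 59.5 against 768 CPM, with 40.6% of its UMIs in 1 cell, and Cxcl12 268 against 648. By count, 8 of 12 chemokine and adhesion genes with a ratio were past 2-fold toward Pdgfrb-positive cells and 1 toward Myh11-positive cells, and 5 and 0 of 7 without other lineages. Among all genes 6.27 and 6.07% passed in these directions, and 9.38 and 13.3% without other lineages.

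**Figure D3:**
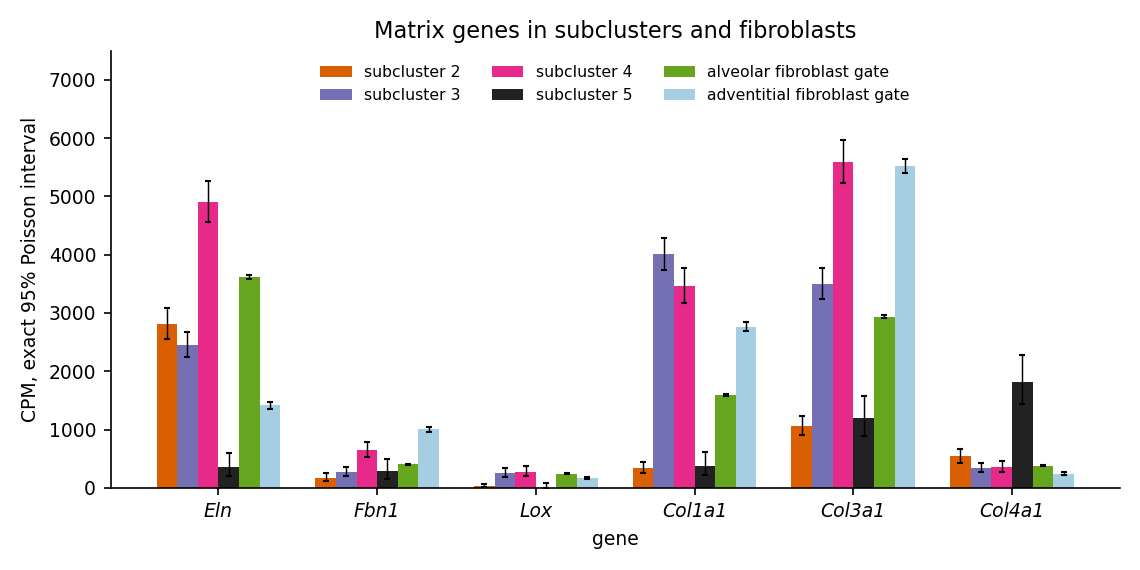
Bars give the CPM of 6 matrix genes in subclusters 2 to 5 of the members and in alveolar and adventitial fibroblasts, with exact 95% Poisson intervals. Eln is high in subclusters 2, 3 and 4 (2811, 2455 and 4902 CPM, the last 2966 without 1 cell) and low in subcluster 5 (358), where Col4a1 is highest (1816).

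The 127 members were grouped by all their genes. Graph-based clustering gave 5 subclusters. Since the clustering used every gene of these cells, the levels that follow describe the groups and were not tested, and only markers from the fixed lists were used for names.

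Subcluster 1 held 42 cells, 19 Myh11-positive, 13 Pdgfrb-positive and 10 with neither gene. All 42 had at least 4 UMIs over Cdh5, Pecam1, Cldn5 and Tie1, with a median of 52. Bmp6, Kdr and Car4 were among its leading genes, and the VEGF receptor Kdr had 883 CPM. Cdh5 stood at 1786 CPM, near the 1990 of the endothelial gate, and Acta2 at 495 (438 to 559), or 282 without 1 cell. Over Acta2, Tagln and Myh11, 30 of the 42 had at most 5 UMIs, whereas 2 cells held 344 of the group's 573. Of the 20 pericyte genes, 15 were found in at least 10% of the cells. With endothelial and mural genes together, the group is not named here. Of the 26 contractile genes 16 were found in at least 10% of the cells. Over Higd1b and Cox4i2 this group had 115 and 181 CPM, against 11.4 and 14.5 in the endothelial gate.

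Subcluster 2, with 32 cells of which 30 were Myh11-positive, carried the contractile apparatus and is called smooth muscle-like. It had 23 of the 26 contractile genes in at least 10% of its cells and a summed contractile level of 33380 CPM, compared with 11733 in subcluster 3, 11304 in subcluster 5 and 4793 in subcluster 4. Acta2 reached 12159 CPM (11631 to 12705), Tagln 8713, Myh11 2682 and Actc1 1528. Aoc3, the vascular adhesion protein 1 of smooth muscle, led the group with 281 CPM. Of the vascular smooth muscle list, Mustn1, which is also on the contractile and myofibroblast lists, had 2939 CPM against 1926 in subcluster 3, Ntrk3 293 against 84.8 and Net1 269 against 270. Of the airway list, Actc1, which is also on the contractile list, had 1528 against 130 CPM (31.1 without 1 cell) in subcluster 3. Lgr6 of that list had 42.8 against 115 CPM, and Hhip, on the airway and myofibroblast lists, was at 0. No endothelial gene passed 10% of the cells and Cdh5 was at 0. Notch3 (764 CPM), Heyl (391) and Col18a1 (825) were high. Eln had 2811 CPM (2560 to 3080), against 3617 in alveolar fibroblasts, whereas Dcn, Gpc3 and Pdgfra were at 0. Of these cells, 26 came from library 2.

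Subcluster 3, of 29 cells, matched the myofibroblast list, with 11 of its 13 genes in at least 10% of the cells and 3 among the 10 leading genes, and is called myofibroblast-like. The airway smooth muscle list, which shares Hhip and Lgr6 with it, was also highest here, at 5510 CPM against 1931 in subcluster 2. Hhip alone gave 4646 of the 5510 CPM and had no UMI in subcluster 2, so the higher sum rests on this shared gene. Of the 10 airway genes, 7 were found in at least 10% of the cells, and 1, Hhip, was among the 10 leading genes. The name therefore does not set these cells apart from airway smooth muscle. Hhip, the secreted antagonist of hedgehog ligands (chromosome 8, 79965851 to 80058006, minus strand), had 4646 CPM here (4353 to 4955) and 19.2 CPM, from 3 UMIs, in subcluster 4. It had no UMI in subclusters 1, 2 and 5, the last of which allows up to 71.7 CPM at its depth. By library its level over all members was 723, 766, 1357 and 36.6 CPM for libraries 1, 2, 3 and 7. Aspn, the collagen-binding protein asporin, had 1827 CPM, the growth factor Fgf18 175, the lysophospholipase Enpp2 1178 and Wnt5a 349. The tendon factor Scx, at 94.8 CPM, was at 0 in the other 4 subclusters. Acta2 (3364 CPM) and Tagln (3374) were lower than in subcluster 2, and the pericyte genes Higd1b and Trpc6 were at 0. Col3a1 had 3499 CPM. Col1a1 had 4008 CPM, but the cell of library 7 held 643 of its 803 UMIs, and the other 28 cells had 945 CPM (805 to 1104). Without that cell the collagen list fell from 13805 to 7333 CPM. Eln had 2455 CPM (2243 to 2682), an interval that overlaps that of the smooth muscle-like cells. Of the 29 cells, 19 were Myh11-positive, 6 Pdgfrb-positive and 4 had neither gene. The immediate early genes Junb and Egr1 had 3039 and 2206 CPM, against 2174 and 1655 in the alveolar fibroblast gate, and the summed stress list was 13400 CPM compared with 9664 in subcluster 4, 7888 in subcluster 2, 5353 in subcluster 1, 2820 in subcluster 5 and 12336 in the alveolar fibroblast gate.

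Subcluster 4 held 13 cells, 11 of them Pdgfrb-positive, and resembled fibroblasts. All 12 genes of the adventitial fibroblast list were found in at least 10% of its cells, and 4 of them (Clec3b, Serpinf1, Gpc3 and Dcn) stood among its 10 leading genes, although the selection had removed cells with Pi16. It is called adventitial fibroblast-like. Dcn reached 6688 CPM, C3 1786, and Mfap4 1843, and 1 cell held 45.2% of the C3 UMIs. Eln had 4902 CPM (4561 to 5262), but 1 cell held 351 of its 766 UMIs, and without that cell the level was 2966 (2687 to 3265), below the 3617 of the alveolar fibroblast gate and with an interval that overlaps that of subcluster 2. Acta2 was at 358 CPM and Cnn1 and Actc1 at 0. Of the 20 pericyte genes, 13 were found in at least 10% of the cells, and the list summed to 1030 CPM, compared with 1402 in subcluster 3. Cox4i2, Higd1b, Vtn and Trpc6 of that list had no UMI, which at this depth allows up to 19.2 CPM. The Pdgfrb-positive cells among them were 11 of the 35 Pdgfrb-positive members. Ctsl had 1094 CPM in them, the highest of the subclusters.

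Subcluster 5, of 11 cells, had the pericyte genes and is called pericyte-like. Of the 20 genes of that list, 17 were found in at least 10% of its cells and they summed to 24639 CPM, compared with 6141 in subcluster 2, 1890 in subcluster 1 and 1402 in subcluster 3. Gucy1a1 had 4158 CPM (3563 to 4824), Pdzd2 3537, Cox4i2 3155 (2639 to 3741), Ndufa4l2, another hypoxia-linked respiratory chain protein, 1912, Higd1b 1792 (1410 to 2247) and Vtn 765. Selection genes were also high, with Postn at 4421 CPM and Pdgfrb at 2366. The ubiquitous isoform Cox4i1, stood at 597 CPM, within the 557 to 837 CPM of the other subclusters, and of the 5 subclusters this was the one where Cox4i2 exceeded it. Vasoactive genes summed to 12977 CPM, with the phosphodiesterase Pde5a at 2629 and Agtr1a at 406. The T-box factors Tbx2 (1362 CPM) and Tbx4 (741) and the basement membrane genes Col4a1 (1816) and Col4a2 (1506) were high, and Eln was low at 358, on 15 UMIs of which 1 cell held 12. Acta2 stood at 693 CPM (464 to 995), or 450 without 1 cell, Ppp1r14a, an inhibitor of myosin phosphatase, at 3035, and Cnn1, Actc1 and Actg2 at 0, which allows up to 71.7 CPM. By class 7 of the 11 cells were Myh11-positive and 4 Pdgfrb-positive, and they came from libraries 2 (8 cells) and 3 (3 cells).

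**Figure D4:**
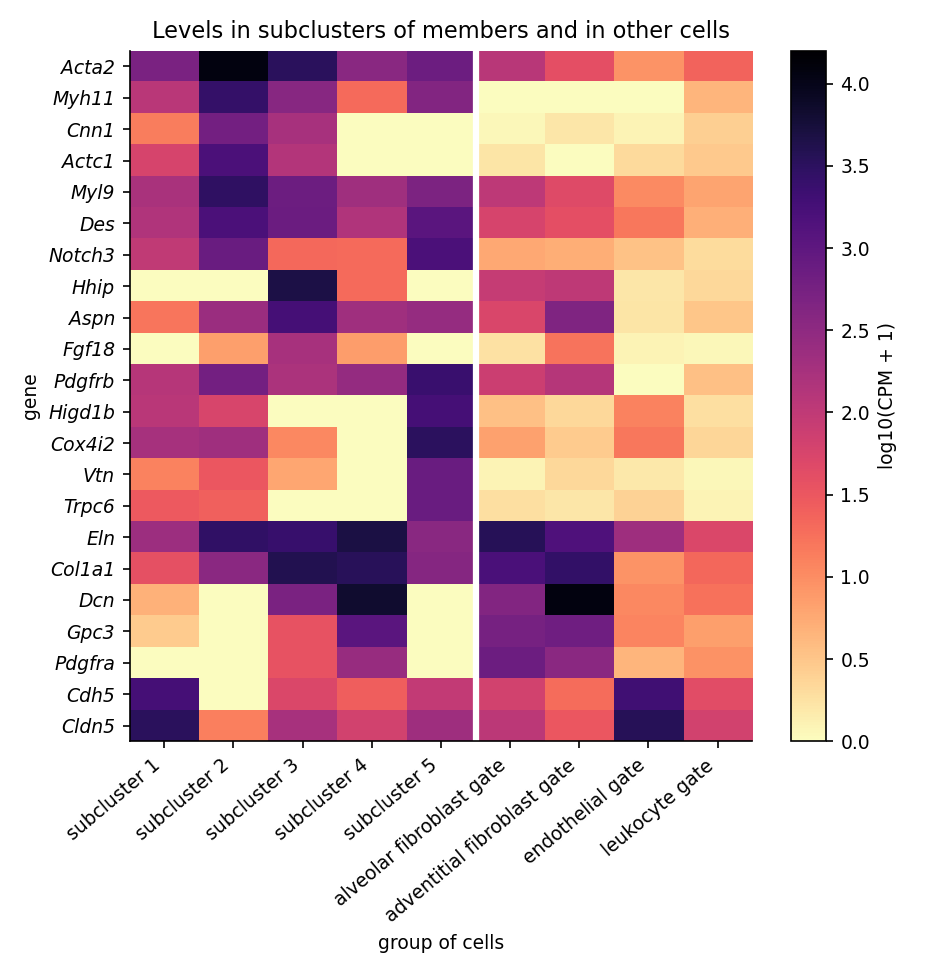
Each tile gives log10 of CPM plus 1 for a gene (rows) in the 5 subclusters of the members and in 4 other groups of cells (columns, right of the white line). Contractile genes are darkest in subcluster 2, Hhip in subcluster 3, Dcn and Gpc3 in subcluster 4, Higd1b, Cox4i2 and Vtn in subcluster 5, and Cdh5 and Cldn5 in subcluster 1 and the endothelial gate.

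**Figure D5:**
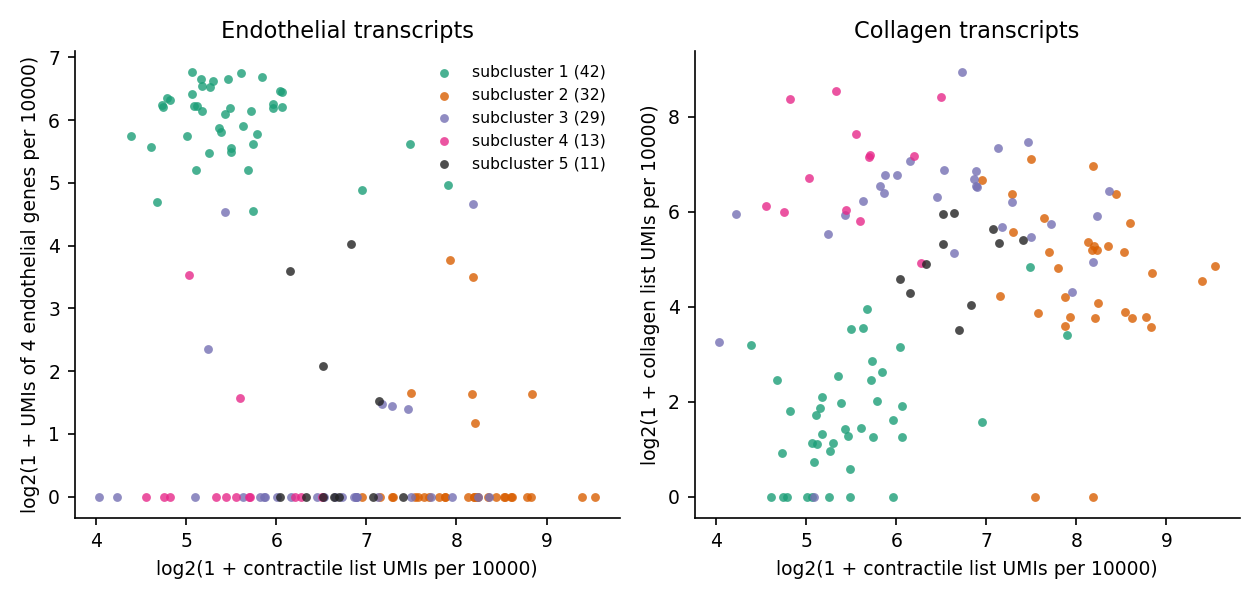
Each point is a member, placed by the UMIs of the contractile list per 10000 of its UMIs (log2 of 1 plus the value, horizontal) and by those of 4 endothelial genes (left) or of the collagen list (right), colored by subcluster with the number of cells in brackets. The 42 cells of subcluster 1 lie high in endothelial transcripts, where most other members are at 0, and subcluster 2 reaches the highest contractile values.

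On the vascular smooth muscle list 5 of 6 genes were past 2-fold toward Myh11-positive and 0 toward Pdgfrb-positive cells. Its median log2 ratio was 2.70. For the airway list the counts were 4 and 1 of 7 (median 1.43), and for the myofibroblast list 5 and 1 of 11 (0.69). Without other lineages they were 5 and 0 of 6, 3 and 1 of 6, and 7 and 1 of 11. Across all genes 6.07 and 6.27% passed among all members, and 13.3 and 9.38% without other lineages. The same shares stand beside the counts that follow. These lists share genes, such as Mustn1, Hhip and Actc1, with each other or with the contractile list. Of the 9 respiratory chain genes with a ratio, 0 passed 2-fold in either direction among all members, and 2 of 9 passed toward Myh11-positive cells without other lineages. Of 17 stress genes, 2 were higher in Myh11-positive cells, the heat shock genes Hspa1a and Hspa1b, and 1 in Pdgfrb-positive cells, the cytokine signaling inhibitor Socs3, which turned direction without other lineages. There 4 of 17 passed toward Myh11-positive and 0 toward Pdgfrb-positive cells, and the median log2 ratio was 0.48 rather than -0.22. Of 4 cell cycle genes with a ratio, 2 passed 2-fold toward Myh11-positive cells, and 1 cell supplied 75.0% of the Mki67 and 51.6% of the Cenpa UMIs. Growth factor and Notch genes went both ways, with 3 of 30 past 2-fold toward Myh11-positive and 8 toward Pdgfrb-positive cells, among them Igf1 at 77.7 against 252 CPM. Without other lineages 7 and 6 of 23 passed, so the lean toward Pdgfrb-positive cells was not seen there. On the alveolar fibroblast list 1 of 6 genes, the integrin Itga8, was higher in Myh11-positive cells, a direction that turned when cells with fibroblast genes were let in, and 2 in Pdgfrb-positive cells, Inmt and Pdgfra. Inmt had 72.7 against 347 CPM.

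The 16 members with neither Myh11 nor Pdgfrb had 10 cells with 4 or more endothelial UMIs and a summed contractile level of 3980 CPM, lower than the 15338 of Myh11-positive and the 5315 of Pdgfrb-positive cells. Of them, 10 fell in subcluster 1 and 4 in subcluster 3.

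The ratios rest on 1 pooled sample and mostly on library 2, without which 142 of 3569 genes passed 2-fold toward Myh11-positive and 368 toward Pdgfrb-positive cells, in place of 424 and 438 of 6985. With members thinned to 1500 UMIs, which left out 10 Myh11-positive and 3 Pdgfrb-positive cells, 1312 genes had a ratio, of which 114 and 91 passed 2-fold.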

How the data were processed

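The authors deposited a single matrix that holds raw UMI counts of each gene in each cell, from 10x Genomics libraries of dissociated mouse lung. The matrix header gives software version 3.1.0 and the submitters' processing notes name Cell Ranger, STAR and mm10. The study's methods add that reads were down-sampled as required to even out libraries. No label or file used here ties a library number to a sample. Of 31053 gene identifiers, 30934 were found in GENCODE M21 (GRCm38), which gave positions, and promoters came from RefSeq GRCm38.p6. 71 duplicated symbols were left out of the named genes, and Ccn1, Ccn2, Mrtfa and Mrtfb were read as Cyr61, Ctgf, Mkl1 and Mkl2.

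The members and the 25 gene lists were chosen with earlier results of these data known. Counts were summed over the cells of a class and divided by their UMIs. Ratios were taken for genes with at least 20 UMIs in both classes together, without selection and mitochondrial genes, and a call means a ratio of at least 2. A count of 0 was set to 3. Ratios have exact conditional binomial intervals, shares Clopper-Pearson intervals. Named genes were the selection genes, the 15 of largest ratio in each direction with at least 100 CPM and the same side in every library with 10 cells of both classes, up to 6 per list, the proteases of the study and Ccl11. Other genes were named after their values were seen.

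Comparison groups were cells with at least 2 genes and 4 UMIs of Npnt, Inmt and Col13a1 (alveolar fibroblasts), of Pi16, Col14a1, Dpt, Cd248 and Clec3b (adventitial fibroblasts) or of Cdh5, Pecam1, Cldn5 and Tie1 (endothelial cells) without foreign markers, and cells with at least 2 Ptprc UMIs, and 142 cells that fell in more than 1 group were dropped. Members were clustered with leidenalg 0.10.2 at a resolution of 0.5 on 15 neighbors in 15 principal components of the 1000 genes of highest residual variance. Doublets were kept in the main values. Scrublet (scanpy 1.11.5) called 2.21, 5.63, 3.28 and 0.76% of cells in libraries 1, 2, 3 and 7, and 6 members. Python 3.11.15, numpy 2.4.6, scipy 1.17.1, pandas 2.3.3, scikit-learn 1.9.0, python-igraph 0.11.9 and matplotlib 3.10.9 were used. The steps were tested on simulated data. Alternatives covered the mitochondrial limit, the selection limits, doublets, other lineages, depth, library weight, each library in turn and the clustering. The comparison of fibroblast and leukocyte gates with cells of several gates kept, the split of collagen, elastic fiber and adventitial UMIs by subcluster, and levels without the highest cell were added after seeing the data.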

Additional observations from a re-analysis of the deposited data

How the results depend on the processing

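No paired analysis was possible because the libraries carry no sample labels and no result comes from a test. The share of members among kept cells, 0.609%, moved to 0.460% with at least 3 markers and 6 UMIs, to 3.99% without a limit on Npnt, Pi16 and Col13a1, to 0.345% without members of another lineage and, in an alternative chosen after seeing the data, to 0.388% without members of 4 or more endothelial UMIs. Leaving out 1 library at a time gave 0.355 to 0.710%, the lowest without library 2. The share of Myh11-positive members, 59.8%, became 71.9% with at least 3 markers and 32.5% without the limit on fibroblast genes, and 44.7 to 63.3% with 1 library left out. The 424 genes past 2-fold toward Myh11-positive cells became 241 at a mitochondrial limit of 5%, 1233 without the limit on fibroblast genes, 803 with libraries weighted equally, 114 at 1500 UMIs per cell, 1196 with at least 5 UMIs per gene and 68 with at least 100. The 438 toward Pdgfrb-positive cells became 991, 1017, 91, 1129 and 84 under the last 5 of these. With 1 library left out the counts ranged from 142 to 516 and from 368 to 428. Clustering gave 5 subclusters under each of 3 other settings. Of the 87 genes past 2-fold among the 108 checked by ratio, 4 turned direction. The log2 ratio of Igfbp3 was 1.57 with at least 3 markers, those of Angpt1 and Itga8 were -0.10 and -0.31 without the limit on fibroblast genes, and that of Socs3 was 0.22 without other lineages and 0.21 without members of 4 or more endothelial UMIs. The causes were not tested. Levels of low genes are limited by the few UMIs of the Pdgfrb-positive class, where 3 UMIs are 8.60 CPM.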
